A study of Rattus norvegicus with 8 samples.

Results

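The presynaptic vesicle release machinery was read through 37 named genes, taken as the protein-coding rows of the count table that carry one of these names. Such rows were found for 35 of the 37 names, among 34298 genes in the table, and all 35 passed the filter on low counts that left 16573 genes for testing. The remaining names were Sv2b, whose row carries another biotype (processed transcript) and is given separately, and Amph, which is not analysed here. Presynaptic terminals store transmitter in vesicles that dock at an active zone, are primed there, and fuse when calcium enters. SNARE proteins on the vesicle and on the plasma membrane drive the fusion, synaptotagmins sense the calcium, complexins clamp and promote the fusion, and NSF with its adaptors takes the spent SNARE complexes apart before endocytosis returns the membrane. Neurexins are presynaptic adhesion proteins that are known to organise calcium channels and release sites, which is the background for reading these genes after an siRNA against a circular neurexin RNA.

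The tissue was the orbitofrontal cortex of adult male Sprague-Dawley rats, 8 weeks old on arrival. The animals behind all 8 samples received 5 ng of an siRNA in 1 µl with the JetPEI transfection reagent, infused into this region, and the tissue was collected 7 days later. The labels give 4 biological replicate samples in each group, without saying whether a sample is 1 animal. The siRNA was a scrambled control in 4 samples (replicates 1, 3, 4 and 5) and targeted the backsplice junction of a circular neurexin 3 RNA, circNrxn3, in the other 4 (replicates 1 to 4, called knockdown libraries after their labels). The design asks which cortical mRNAs differ after the circle is targeted. Poly-T selected libraries hold mainly linear mRNA, so they do not show how far the circle itself was reduced. The strands of the circNrxn3 siRNA are printed because they define the groups, 5′ to 3′, with bases 2 to 8 (the seed, by which a guide strand can pair with other mRNAs) in capitals.
sense: uCCAAAGGcuagacaggaauu
antisense: uUCCUGUCuagccuuuggauu
Neither seed, CCAAAGG nor UCCUGUC, was the seed of any of 724 mature rat miRNAs in the RefSeq table (GRCr8). Matches of the seeds to mRNAs are not given here, so this does not show which mRNAs the strands can pair with.

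Libraries held 27589883 to 35221782 counts, and 18274 to 20494 genes had at least 1 read. No gene of the whole table passed an adjusted p of 0.05 in edgeR (0 of 16573, 0.0% called, 0 higher and 0 lower), 926 genes (5.59%) had an unadjusted p under 0.05, DESeq2 called 18 genes and limma-voom 0. Neuronal markers summed to 2576 to 2841 CPM (scrambled) against 2578 to 3028 CPM (knockdown), with 2 of 8 above 0 and 0 called. Cortical excitatory markers summed to 9361 to 10115 CPM (scrambled) against 8203 to 9737 CPM (knockdown), yet 4 of 6 were above 0 (median log2 fold change 0.09), the largest 2 by level, Nrgn and Slc17a7, being below 0. Striatal projection neuron markers, a check of the dissection, summed to 322 to 417 CPM (scrambled) against 318 to 394 CPM (knockdown). The 4 choroid plexus markers were each under 1 CPM in all libraries, and so was Cldn5, a defining endothelial marker, whereas the other endothelial and mural markers were detected. Astrocyte markers summed to 3911 to 4229 CPM (scrambled) against 3474 to 3804 CPM (knockdown), ranges that do not overlap, with 6 of 7 markers below 0 and 0 called. The markers highest by level, S100b, Aldoc and Gfap, had log2 fold changes of −0.17, −0.15 and −0.43. Of the others, Slc1a3, Aqp4, Gja1 and Aldh1l1 had −0.05, −0.08, 0.01 and −0.28. How often sums of other gene lists fail to overlap is not given here. Red blood cell markers summed to 607 to 2438 CPM (scrambled) against 359 to 759 CPM (knockdown), with 5 of 5 below 0 and a median of −1.14. Phagocytic myeloid markers were below 0 in 5 of 5 (median −0.46), oligodendrocyte precursor markers in 4 of 4 (median −0.13), and oligodendrocyte markers above 0 in 7 of 7 (median 0.12), with 0 called in each list. Microglia markers went both ways, with 3 of 6 above 0 and 3 below 0 (median 0.01). Above 0 were 5 of 7 inhibitory neuron markers (median 0.05) and 4 of 5 parvalbumin interneuron markers (median 0.06). Of the endothelial and mural markers tested, 1 of 3 was above 0 (median −0.07). Oligodendrocyte sums overlapped between the groups, at 1999 to 4741 CPM (scrambled) against 2541 to 4158 CPM (knockdown). In bulk tissue, fewer cells of a type and less RNA per cell cannot be told apart, and the part of these cell types in the values below was not tested.

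Together the 35 genes took 1.67% to 1.86% of all counts in a library, 1.72 ± 0.0309% (scrambled) against 1.8 ± 0.0474% (knockdown; SD, n = 4 per group). These unscaled shares did not overlap, at 1.67% to 1.74% against 1.75% to 1.86%. With TMM scaling the sums overlapped, at 16991 to 18196 CPM against 16687 to 18535 CPM. Levels are given as FPKM, which is per length of the gene model and so allows a rough comparison between genes. They covered about 3 orders of magnitude, from Snap25, a plasma membrane SNARE, at 1207 ± 101 FPKM to Erc2, an active zone scaffold, at 0.934 ± 0.468 FPKM (SD, n = 8). Sncb (β-synuclein, a vesicle-associated protein) followed Snap25 at 1129 ± 147 FPKM, and their order was not fixed, since Snap25 was the higher in 5 of 8 libraries. Syp (synaptophysin, an abundant vesicle membrane protein) was at 937 ± 124, Vamp2 (the main vesicle SNARE of the forebrain) at 744 ± 83.7, Dnm1 (the dynamin that cuts endocytic vesicles free) at 517 ± 50.4 and Rab3a (the vesicle GTPase that binds RIM) at 429 ± 36.1 FPKM (SD, n = 8). Vamp2 lay above Dnm1, and Dnm1 above Rab3a, in 8 of 8 libraries with SD ranges that do not overlap.

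The next genes in the order were Cplx1 (complexin 1) at 385 ± 46, Syn1 (synapsin 1, which tethers vesicles in the reserve pool) at 305 ± 15.5, Napa (α-SNAP, an NSF adaptor) at 273 ± 16.8, Stx1a (syntaxin 1A, a plasma membrane SNARE) at 257 ± 12.7 and Syt1 (the calcium sensor of fast release) at 256 ± 16 FPKM (SD, n = 8). Neighbours from Syn1 to Syt1 had overlapping SD ranges, and Stx1a exceeded Syt1 in 5 of 8 libraries. Nsf (the ATPase of SNARE disassembly), Syt5 and Syt11 formed a group at 193 ± 14.3, 185 ± 24.7 and 177 ± 7.67 FPKM that could not be ordered beyond their spread. Active zone genes held most of the lower end. Bsn (bassoon) was at 23.1 ± 1.29, Unc13a (the priming factor Munc13-1) at 11.2 ± 1.46, Rims1 at 5.46 ± 2.36, Unc13b at 4.61 ± 0.906, Erc1 at 4.18 ± 0.31, Pclo (piccolo) at 1.57 ± 0.868 and Rims2 at 1.1 ± 0.458 FPKM (SD, n = 8). Whether each gene model covers all exons of its gene was not checked, and a model that misses exons would change its FPKM. The libraries also differed in their share of long transcripts, as described below, and FPKM was not corrected for this. Its part in the low levels of the long active zone genes was not tested.

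**Figure D1:**
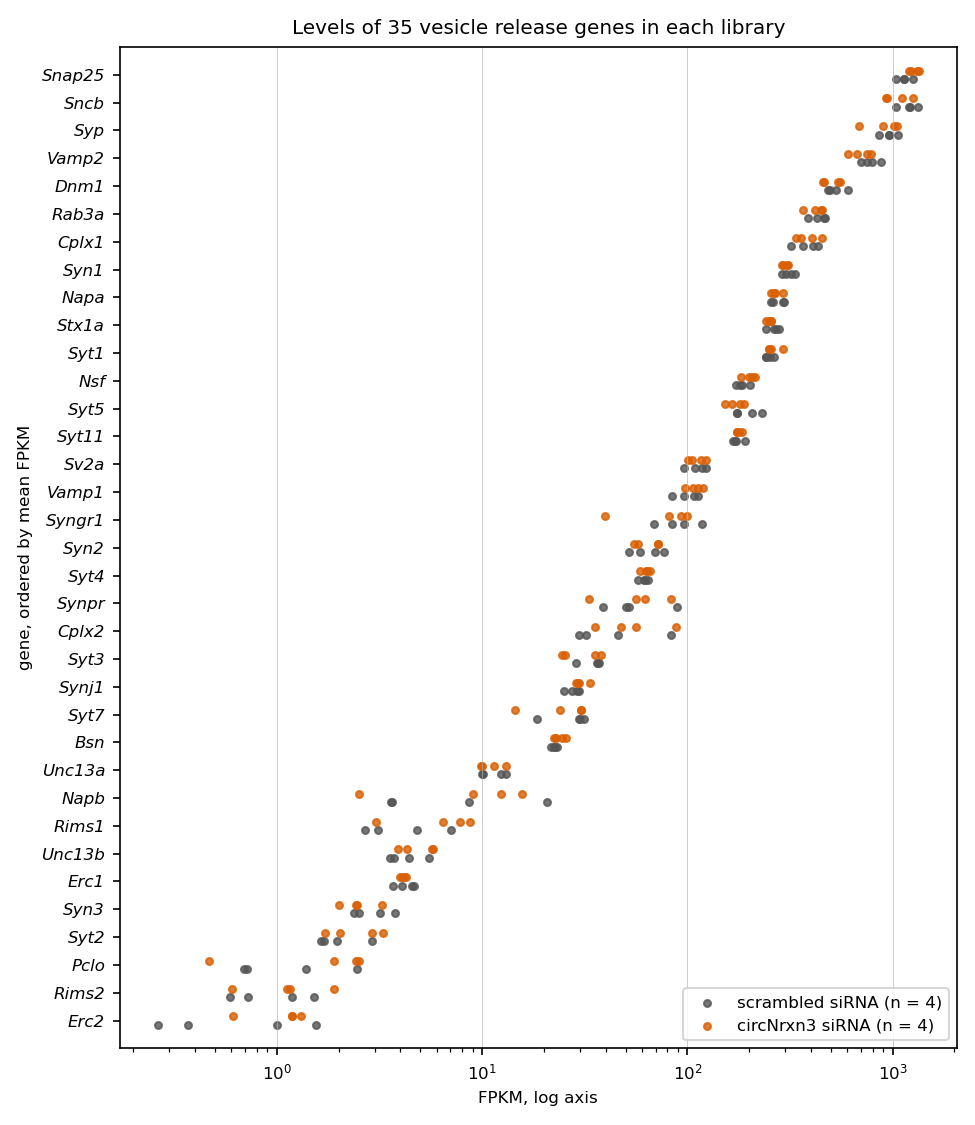
FPKM (log axis) of the 35 genes in each of the 8 libraries, ordered by their mean over all libraries; grey points are the 4 scrambled and orange points the 4 knockdown libraries. Snap25 and Sncb lead, Erc2, Rims2 and Pclo are at the low end, and grey and orange points overlap for every gene.

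Between the siRNA groups, none of the 35 genes passed the threshold. The edgeR test called 0 of 35 at an adjusted p of 0.05 (background 0.0%), 0 of 35 had an unadjusted p under 0.05 (background 5.59%), and in 0 of 35 did the values of the groups fail to overlap (background 3.48% in all, 1.82% with higher and 1.65% with lower knockdown values). DESeq2, limma-voom and limma on FPKM values likewise called 0 of the 35. Snap25 alone of the 35 had an unadjusted p under 0.05 with DESeq2 and with limma-voom. The share of all genes under 0.05 in these fits is not given here, so this count has no background beside it. Fold changes are log2 values of knockdown over scrambled libraries. Their median was 0.03 over the 35 genes against 0.01 over all genes tested, and 20 of 35 (57.1%) were above 0 against 51.3% of all genes, with 15 below 0 against 48.7%. The median standard error was 0.11 for these genes and 0.17 for all genes tested, and single standard errors ran from 0.07 to 0.71. The number above 0 was 16 without knockdown replicate 2 and 15 after each library's length trend was removed.

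**Figure D2:**
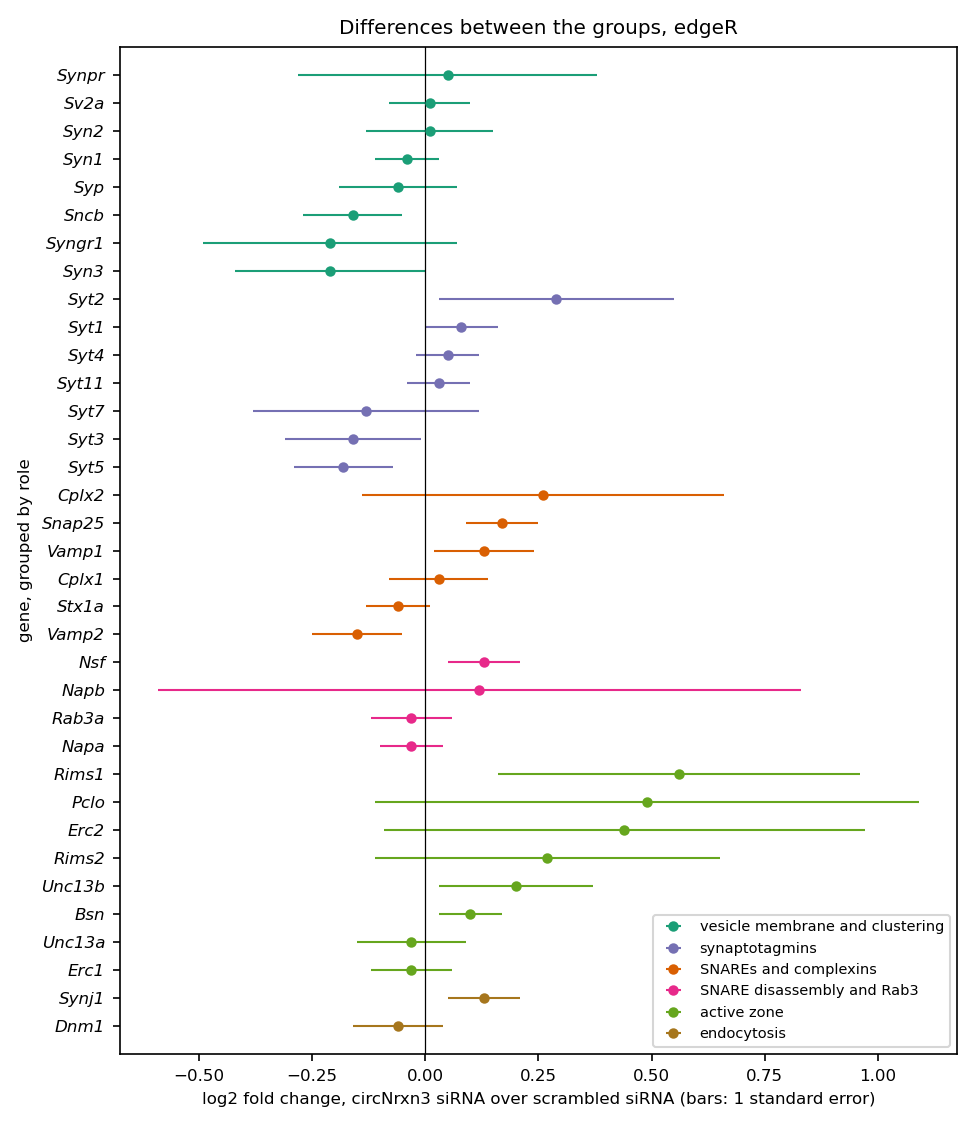
Log2 fold change of knockdown over scrambled libraries for each of the 35 genes with 1 standard error, coloured by role. Of the 35, 20 lie above 0; the widest bars belong to Napb, Pclo and Erc2, and the narrowest to genes such as Bsn, Syn1 and Syt4.

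Genes of the vesicle membrane and of vesicle clustering centred on −0.05 (median log2 fold change), and 3 of 8 were above 0 with 0 called. Sncb had the smallest p of this group. Sncb (ENSRNOG00000018039, chromosome 17, 10384511 to 10392843, rn6) was at 1398, 1757, 1598 and 1627 CPM across scrambled replicates 1, 3, 4 and 5, against 1259.9, 1269, 1687 and 1482 CPM across knockdown replicates 1 to 4. Knockdown replicates 1 and 2 lay below every scrambled library, and the other knockdown libraries lay within the scrambled range. For Sncb the log2 fold change was −0.16 (standard error 0.11, edgeR adjusted p = 0.834). Syn3 (synapsin 3, ENSRNOG00000026866, chromosome 7, 23403891 to 23808602, rn6), the least abundant synapsin here, was at 8.62, 7.16, 5.39 and 5.71 CPM across scrambled replicates 1, 3, 4 and 5, against 5.68, 4.6, 7.48 and 5.55 CPM across knockdown replicates 1 to 4, with overlapping groups and a log2 fold change of −0.21 (standard error 0.21, edgeR adjusted p = 0.88). It was −0.06 without scrambled replicate 1 and −0.36 without knockdown replicate 3.

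The abundant synapsin Syn1 was at 987 ± 56.8 CPM (scrambled) against 959.7 ± 27.4 CPM (knockdown; SD, n = 4 per group), a log2 fold change of −0.04 (standard error 0.07), and its 8 libraries lay within a CPM ratio of 1.14. Syn2 had 0.01 (standard error 0.14), Syp −0.06 (standard error 0.13), and Sv2a (a vesicle glycoprotein, the binding site of levetiracetam) 0.01 (standard error 0.09). With RLE scaling the values of Syn2 and Sv2a turned to −0.00483 and −0.00211. Syngr1 (synaptogyrin 1) had −0.21 (standard error 0.28) and Synpr (synaptoporin) 0.05 (standard error 0.33), with wide spreads described below. The models of Syn1, Syn2, Syn3 and Rab3a overlap protein-coding genes on the opposite strand. These are Araf (112 CPM), LOC102555453 (68.6 CPM) and Timp1 (1.93 CPM) for Syn1, Timp4 (10.6 CPM) and LOC680161 (0.186 CPM) for Syn2, Timp3 (9.89 CPM) for Syn3 and Mpv17l2 (45 CPM) for Rab3a. No source used here says whether reads were counted by strand, and without it reads of such pairs cannot be told apart. The Sv2b row (SV2B, the vesicle glycoprotein related to Sv2a), of biotype processed transcript, was at 345 ± 42.3 CPM (scrambled) against 357 ± 19.9 CPM (knockdown; SD, n = 4 per group), a log2 fold change of 0.05 (standard error 0.09).

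Of the synaptotagmins, 4 of 7 were above 0, their median was 0.03 on the log2 scale and 0 were called. Syt5 (ENSRNOG00000018217, chromosome 1, 72860218 to 72867930, rn6), a vesicle calcium sensor, was at 321, 421, 377 and 321 CPM across scrambled replicates 1, 3, 4 and 5, against 283, 305, 346 and 333 CPM across knockdown replicates 1 to 4. Knockdown replicates 1 and 2 lay below all scrambled libraries, and scrambled replicate 3 was the highest of the 8. The difference for Syt5 was, as a log2 fold change, −0.18 (standard error 0.11, edgeR adjusted p = 0.833). Syt2 (ENSRNOG00000004756, chromosome 13, 51534025 to 51578052, rn6), the fast calcium sensor of many inhibitory and hindbrain synapses, was at 5.15, 5.25, 6.05 and 9.07 CPM across scrambled replicates 1, 3, 4 and 5, against 5.41, 9.11, 6.37 and 10.3 CPM across knockdown replicates 1 to 4. High and low libraries occurred in both groups, and the log2 fold change was 0.29 (standard error 0.26, edgeR adjusted p = 0.864). It was 0.12 without knockdown replicate 4 and 0.50 without scrambled replicate 5.

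Syt1, the sensor of fast release in forebrain neurons, was at 1128 ± 56.4 CPM (scrambled) against 1190 ± 91.8 CPM (knockdown; SD, n = 4 per group), a log2 fold change of 0.08 (standard error 0.08). Syt4, which lacks calcium binding in its first C2 domain, had 0.05 (standard error 0.07), Syt11, another synaptotagmin that does not act as a calcium sensor, 0.03 (standard error 0.07), Syt3, which takes part in receptor trafficking and fast recovery of release, −0.16 (standard error 0.15) and Syt7, a slow, high-affinity sensor, −0.13 (standard error 0.25). Syt4 and Syt11 were among the steadiest genes, with 8 libraries within CPM ratios of 1.17 and 1.14.

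Among SNAREs and complexins, 4 of 6 had a log2 fold change above 0, the median was 0.08 and 0 were called. Snap25 (ENSRNOG00000006037, chromosome 3, 129599353 to 129788400, rn6) had the smallest p of all 35 genes. It was at 2436, 2187, 2653 and 2419.5 CPM across scrambled replicates 1, 3, 4 and 5, against 2824, 2577, 2638 and 2866 CPM across knockdown replicates 1 to 4. Scrambled replicate 3 was the lowest library, knockdown replicates 1 and 4 were above every scrambled library, and scrambled replicate 4 lay above knockdown replicates 2 and 3. Snap25 had a log2 fold change of 0.17 (standard error 0.08, edgeR adjusted p = 0.833), with unadjusted p of 0.0644 in edgeR, 0.0462 in DESeq2 (adjusted 0.436) and 0.0445 in limma-voom (adjusted 0.751), and it ran from 0.12 to 0.21 when single libraries were left out.

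Vamp2 (ENSRNOG00000006989, chromosome 10, 55675575 to 55679450, rn6) was at 1549, 1921, 1740 and 1646 CPM across scrambled replicates 1, 3, 4 and 5, against 1346, 1488, 1719 and 1646 CPM across knockdown replicates 1 to 4. Its lowest values were in knockdown replicates 1 and 2, and knockdown replicates 3 and 4 lay within the scrambled range. Vamp2 had a log2 fold change of −0.15 (standard error 0.10, edgeR adjusted p = 0.834), whereas that of Vamp1, the paralog that is prominent in spinal cord and in fast-spiking interneurons, was 0.13 (standard error 0.11). Stx1a had −0.06 (standard error 0.07), Cplx1 0.03 (standard error 0.11) and Cplx2 (complexin 2) 0.26 (standard error 0.40).

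Genes of SNARE disassembly and the Rab3 cycle had 2 of 4 log2 fold changes above 0, a median of 0.05 and 0 called. Nsf (ENSRNOG00000003905, chromosome 10, 91878633 to 92008082, rn6) was at 706, 682, 761 and 654 CPM across scrambled replicates 1, 3, 4 and 5, against 768, 790.2, 699 and 810.2 CPM across knockdown replicates 1 to 4. Knockdown replicates 1, 2 and 4 were above all scrambled libraries, and knockdown replicate 3 lay among them. For Nsf the log2 fold change was 0.13 (standard error 0.08, edgeR adjusted p = 0.833). Rab3a (ENSRNOG00000019433, chromosome 16, 20435101 to 20439206, rn6) was at 541, 641, 634 and 591 CPM across scrambled replicates 1, 3, 4 and 5, against 513, 584, 632 and 624 CPM across knockdown replicates 1 to 4, with a log2 fold change of −0.03 (standard error 0.09, edgeR adjusted p = 0.953). Knockdown replicate 1 was the lowest library and the other knockdown libraries lay within the scrambled range. Napa had −0.03 (standard error 0.07). Napb (β-SNAP, the brain-enriched adaptor) had 0.12 (standard error 0.71), the widest error of the 35.

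Active zone genes stood highest of the roles by their median log2 fold change, 0.23 with 6 of 8 above 0, and 0 were called. Their median standard error was 0.28, larger than this median. All of them but Erc2 have gene models of at least 5193 bp, and the relation of fold change to length is described below. The largest values of this role, those of Rims1, Pclo, Erc2 and Rims2, belong to genes lowest in scrambled replicates 3 and 4 and knockdown replicate 3. Without these libraries they were 0.37, 0.25, −0.05 and 0.06, with few libraries left. The part of these libraries in the median was not tested. The 18 other active zone genes tested from the wider list had a median of 0.02. Rims1 (ENSRNOG00000011000, chromosome 9, 28442229 to 28973246, rn6), the RIM scaffold that links Rab3, Munc13 and calcium channels, was at 42.1, 15.8, 18.2 and 28.5 CPM across scrambled replicates 1, 3, 4 and 5, against 46.4, 51.9, 18 and 38.1 CPM across knockdown replicates 1 to 4. Scrambled replicates 3 and 4 and knockdown replicate 3 lay between 15.8 and 18.2 CPM and the other 5 libraries between 28.5 and 51.9 CPM, so low and high libraries occurred in both groups. The log2 fold change of Rims1 was 0.56 (standard error 0.40, edgeR adjusted p = 0.835), the largest of the 35. It was 0.89 without scrambled replicate 1 (edgeR adjusted p = 0.491), 0.79 without knockdown replicate 3 (edgeR adjusted p = 0.543) and 0.38 without scrambled replicate 3 (edgeR adjusted p = 0.999).

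Bassoon (Bsn, ENSRNOG00000030714, chromosome 8, 116873721 to 116965396, rn6), a giant scaffold of the active zone, was at 377, 362, 360.3 and 349 CPM across scrambled replicates 1, 3, 4 and 5, against 419, 397, 364 and 369 CPM across knockdown replicates 1 to 4. Knockdown replicates 1 and 2 were above all scrambled libraries and replicates 3 and 4 within their range. Bsn had a log2 fold change of 0.10 (standard error 0.07, edgeR adjusted p = 0.834). Pclo, a related giant scaffold, had 0.49 (standard error 0.60), Rims2 0.27 (standard error 0.38), Erc2 0.44 (standard error 0.53) and Erc1, an ELKS scaffold like Erc2, −0.03 (standard error 0.09). With single libraries left out, Pclo ran from 0.27 without scrambled replicate 3 to 0.99 without scrambled replicate 1. Erc2 ran from 0.15 without scrambled replicate 4 to 1.0 without scrambled replicate 1, and was 0.82 in limma-voom. Of the priming factors, Unc13a had −0.03 (standard error 0.12) and Unc13b 0.20 (standard error 0.17).

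The endocytosis genes were Dnm1 and Synj1. Synj1 (synaptojanin 1, the lipid phosphatase that helps uncoat vesicles, ENSRNOG00000002051, chromosome 11, 31104787 to 31180642, rn6) was at 207, 201, 190.3 and 175 CPM across scrambled replicates 1, 3, 4 and 5, against 235, 201, 205 and 206 CPM across knockdown replicates 1 to 4. Knockdown replicate 1 was the highest library and scrambled replicate 5 the lowest, and 5 of the other libraries lay between 201 and 207 CPM. Synj1 had a log2 fold change of 0.13 (standard error 0.08, edgeR adjusted p = 0.833). Dnm1 (ENSRNOG00000033835, chromosome 3, 11338083 to 11382043, rn6) was at 1602, 1936, 1700.1 and 1563 CPM across scrambled replicates 1, 3, 4 and 5, against 1491, 1507, 1762 and 1782 CPM across knockdown replicates 1 to 4, with overlapping groups and a log2 fold change of −0.06 (standard error 0.10, edgeR adjusted p = 0.929).

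The spread between libraries of 1 group differed widely among these genes, and for some it was far larger than the difference between the groups. The ratio of the highest to the lowest of the 8 libraries, taken on CPM, had a median of 1.43. It was above 2.5 for 8 of 35 genes (22.9%, against 27.5% of all genes tested), a limit chosen after the values were seen and given as a description. In 7 of these 8, namely Napb, Erc2, Pclo, Rims1, Rims2, Cplx2 and Synpr, the 3 lowest CPM values were those of scrambled replicates 3 and 4 and knockdown replicate 3. These 3 libraries were themselves picked after the values of these genes and earlier results of these data were seen. They were also the 3 lowest in 19.6% of all tested genes with a ratio above 2.5. In CPM they were the lowest for 9 of 35 genes (25.7%, against 10.3% of all genes tested), Vamp1 and Unc13a being the others. In FPKM Unc13a was not among them, since knockdown replicate 1 was at 9.99 and scrambled replicate 4 at 10.1 FPKM. They were the 3 highest in CPM for 3 genes, Syt5, Vamp2 and Rab3a (8.57%, against 6.94%).

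Napb, the NSF adaptor enriched in brain, was at 20.8, 3.61, 3.65 and 8.67 FPKM across scrambled replicates 1, 3, 4 and 5, against 15.7, 12.3, 2.52 and 9.02 FPKM across knockdown replicates 1 to 4, and its ratio of highest to lowest CPM was 8.28. Its paralog Napa, in the same libraries, stayed between 255 and 295 FPKM. Pclo was at 2.47, 0.689, 0.715 and 1.38 FPKM in the scrambled and 2.51, 2.42, 0.465 and 1.9 FPKM in the knockdown libraries, in the same order of replicates. The related scaffold Bsn stayed between 21.6 and 25.6 FPKM, so the members of these pairs differed in how evenly they were detected.

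Erc2 was at 1.56, 0.369, 0.263 and 1 FPKM across scrambled replicates 1, 3, 4 and 5, against 1.18, 1.18, 0.612 and 1.31 FPKM across knockdown replicates 1 to 4. Rims2 was at 1.51, 0.59, 0.723 and 1.19 FPKM and 1.12, 1.9, 0.606 and 1.16 FPKM in the same order. Scrambled replicate 1 and knockdown replicates 1, 2 and 4 were the high libraries for Erc2, and scrambled replicate 5 came just under them. Cplx2, the complexin of many excitatory forebrain neurons, was at 83.6, 29.6, 32.1 and 45.8 FPKM in scrambled and 47.4, 87.7, 35.5 and 56.2 FPKM in knockdown libraries, again in that order. Synpr was at 88.7, 38.8, 50.5 and 51.7 FPKM and 62.1, 83.7, 33.2 and 56.3 FPKM. For Cplx2 and Synpr the highest values were in scrambled replicate 1 and knockdown replicate 2, that is, 1 library of each group.

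Syngr1 had another order, with 68.7, 118, 83.8 and 96.5 FPKM across scrambled replicates 1, 3, 4 and 5, against 39.9, 93.3, 81.7 and 100 FPKM across knockdown replicates 1 to 4. Its lowest library was knockdown replicate 1 and its highest scrambled replicate 3. The libraries with low values of the 7 genes were also those with the fewest genes detected, 18274 in scrambled replicate 3, 19572 in scrambled replicate 4 and 19487 in knockdown replicate 3, against 19845 to 20494 in the others. Their total counts were 35191810, 34563807 and 28219271, against 27589883 to 35221782 over all 8 libraries. The part of library quality in this pattern was not tested. Without these 3 libraries, scrambled replicates 1 and 5 remained against knockdown replicates 1, 2 and 4. The log2 fold change was then −0.24 for Napb, −0.05 for Erc2, 0.25 for Pclo, 0.37 for Rims1, 0.06 for Rims2, −0.01 for Cplx2 and −0.05 for Synpr, with adjusted p of 0.994 to 0.997 (edgeR). This fit was set up from earlier results of these data as one without libraries low in long transcripts. By the length measure described below, however, scrambled replicate 5 (−0.12) lay under scrambled replicate 3 (−0.11) and knockdown replicate 3 (−0.06). The libraries left out are also those with low values in these same genes, and few remained, so these values are a description only.

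**Figure D3:**
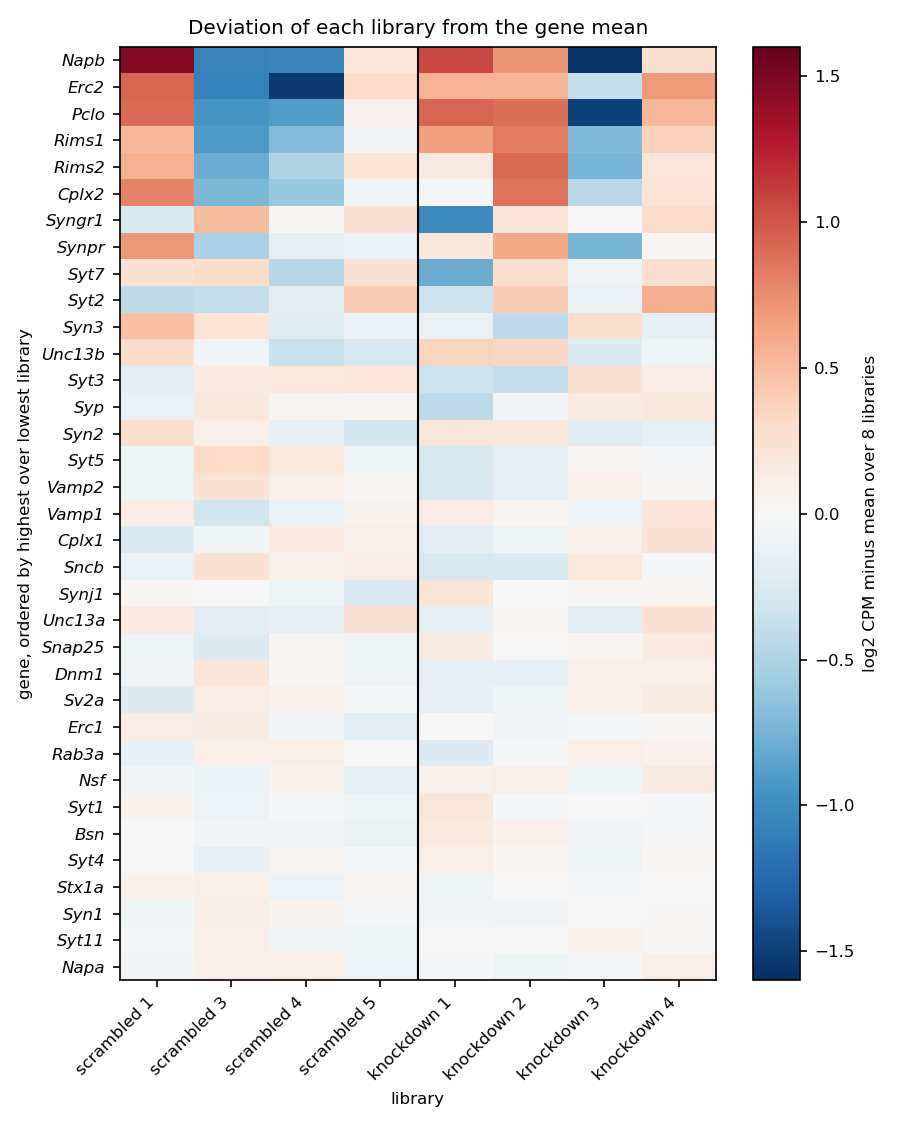
Log2 CPM of each library minus the mean of the gene over the 8 libraries, with genes ordered from the widest to the narrowest ratio of highest to lowest library; the black line separates scrambled from knockdown libraries. Blue cells for Napb, Erc2, Pclo, Rims1, Rims2, Cplx2 and Synpr fall in scrambled replicates 3 and 4 and knockdown replicate 3, on both sides of the line, while genes such as Napa, Syt11 and Syn1 stay near 0.

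Gene models of these proteins differ in length from 1174 bp (Napb) to 16047 bp (Bsn), so a library measure of transcript length was read beside them. It is the log2 ratio of the summed CPM of genes of at least 3486 bp to that of genes of at most 1372 bp. It was 0.06, −0.11, −0.18 and −0.12 across scrambled replicates 1, 3, 4 and 5, against 0.06, 0.26, −0.06 and 0.08 across knockdown replicates 1 to 4, a difference of 0.17 between the group means (2-sided exact permutation p = 0.0857). Of the 11 members of at least 4000 bp, 9 had a log2 fold change above 0, with a median of 0.10. Of the 16 members from 2000 to under 4000 bp, 9 were above 0 (median 0.02), and of the 8 shorter members 2 were above 0 (median −0.05).

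Across the 35 genes, which are not independent replicates, fold change and log2 length had a Pearson r of 0.45, given as a description. After removal of each library's length trend, r was 0.33, 15 of 35 genes were above 0 and the median was −0.03, against −0.025 over all genes tested. The long members then had 7 of 11 above 0 and a median of 0.03. Rims1 kept 0.50 and Pclo 0.43, whereas Bsn had 0.03 and Syt1 0.01.

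**Figure D4:**
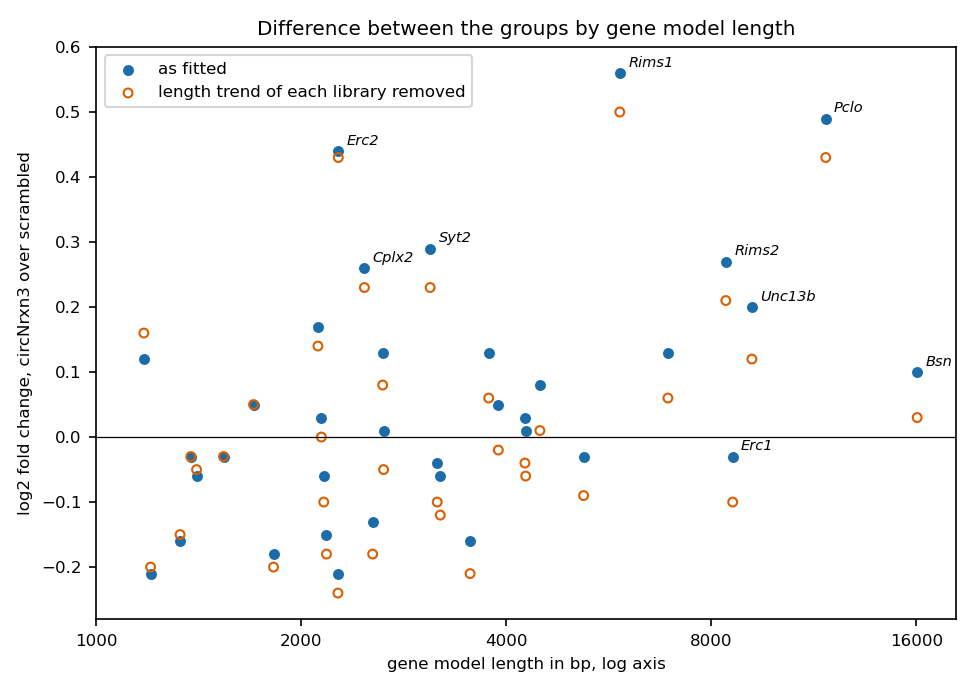
Log2 fold change of knockdown over scrambled libraries against gene model length (log axis) for the 35 genes, as fitted (filled) and after removal of each library's length trend (open). Of 11 genes of at least 4000 bp, 9 filled points lie above 0, and most open points of genes over 2000 bp sit lower than the filled ones.

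Many release proteins have paralogs with different properties, and the ratio of 2 genes within a library does not depend on library scaling. Of 10 such ratios of FPKM, 0 passed after adjustment over the 10 (smallest adjusted p = 0.571, 2-sided exact permutation test, smallest possible p = 0.0286). At this size 1 fully separated pair would have an adjusted p of 0.286, and 6 pairs at the smallest p would be needed to pass, so the adjusted test says little here. Rims1 to Rims2 had the smallest p. The ratio was 4.71, 4.56, 4.29 and 4.06 across scrambled replicates 1, 3, 4 and 5, against 6.97, 4.58, 5.01 and 5.53 across knockdown replicates 1 to 4, a difference of 0.31 on the log2 scale (exact permutation p = 0.0571). Of the knockdown libraries, 3 lay above all scrambled ones, and replicate 2 lay among them.

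Vamp2 exceeded Vamp1 by 6.22 to 10.5 times in scrambled and 5.39 to 8.02 times in knockdown libraries (log2 difference −0.28, exact permutation p = 0.229). Syt1 exceeded Syt2 by 82.9 to 161 times and 76.2 to 169 times in the same groups (exact permutation p = 0.6). By FPKM of these gene models, Cplx1 was above Cplx2 in every library. The ratio of Cplx2 to Cplx1 was 0.0744 to 0.26 in scrambled and 0.0877 to 0.245 in knockdown libraries (exact permutation p = 0.543). It was lowest in scrambled replicates 3 and 4 and knockdown replicate 3, at 0.0804, 0.0744 and 0.0877, the libraries where Cplx2 itself was low. Bsn exceeded Pclo by 9.39 to 32.7 times in scrambled and 10.1 to 48.2 times in knockdown libraries (exact permutation p = 0.743). Sv2a was 1.32 to 2.02 times the Sv2b row over the 8 libraries, Unc13a 1.74 to 3.51 times Unc13b, and Syn1 3.75 to 5.77 times Syn2, with exact permutation p of 0.8, 0.343 and 0.886. The ratio of Napb to Napa was 0.00945 to 0.0792 (exact permutation p = 0.8), and the ratio of Erc2 to Erc1 was 0.0645 to 0.342 (exact permutation p = 0.343).

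Syt2, Vamp1 and Cplx1 are known from fast-spiking interneurons, so their levels were set against Pvalb, the parvalbumin gene of these cells, over the 8 libraries. For Cplx1 Pearson r was 0.74 (exact permutation p = 0.0414, adjusted over the 3 relations 0.124) and Spearman rho 0.74 (exact permutation p = 0.0458, adjusted 0.137). Without scrambled replicates 3 and 5, the 2 libraries farthest from the Pvalb median, r was 0.88. For Syt2 r was 0.54 and rho 0.57 (exact permutation p = 0.171 and 0.151, adjusted 0.257 and 0.226), and for Vamp1 0.45 and 0.19 (exact permutation p = 0.268 and 0.665, adjusted 0.268 and 0.665). Without the same libraries r was 0.29 for Syt2 and −0.15 for Vamp1. None of the 3 relations passed after adjustment, and groups of 4 are too small to give them within a group. Pvalb itself was at 141, 124, 187 and 188 CPM in scrambled and 159.7, 144, 161 and 186 CPM in knockdown libraries, in order of replicate.

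Promoter windows from RefSeq (GRCr8, 250 bases before to 50 after the annotated start) were found for 29 of the 35 genes, 30 windows in all. Windows are shown for Napa, Syn1 and Vamp1, the only ones that hold the first motif below, and for Napb and Pclo. The CPM ratio of extreme libraries was 1.14 for Napa, 8.28 for Napb and 5.42 for Pclo. Other steady genes, such as Syt11 (ratio 1.14) and Stx1a (1.15), have windows without that motif. A relation of the motif to the spread was not tested. The cyclic AMP response element TGACGTCA, a palindrome searched on both strands, was in 3 of 30 windows (10.0%), those of Napa, Syn1 and Vamp1. It was in 1.83% of all 33469 windows and 2.95% of 11670 windows of tested protein-coding genes matched by symbol. The GC box GGGCGG, the core of Sp1 sites, searched on both strands, was in 24 of 30 windows (80.0%), 33.1% of all windows and 59.5% of those of tested genes. The median GC content was 67.0% in these 30 windows, 51.7% in all and 60.3% in those of tested genes, and a GC-rich window holds such a box more often. Both motifs are in capitals in the sequences, which read 5′ to 3′ on the gene's strand.
Napa: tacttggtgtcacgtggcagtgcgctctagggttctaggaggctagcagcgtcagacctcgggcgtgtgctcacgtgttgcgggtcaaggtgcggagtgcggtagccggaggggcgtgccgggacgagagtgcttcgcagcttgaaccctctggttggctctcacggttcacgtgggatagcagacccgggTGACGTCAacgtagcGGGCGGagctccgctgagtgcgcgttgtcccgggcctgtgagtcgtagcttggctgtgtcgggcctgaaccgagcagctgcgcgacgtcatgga
Napb: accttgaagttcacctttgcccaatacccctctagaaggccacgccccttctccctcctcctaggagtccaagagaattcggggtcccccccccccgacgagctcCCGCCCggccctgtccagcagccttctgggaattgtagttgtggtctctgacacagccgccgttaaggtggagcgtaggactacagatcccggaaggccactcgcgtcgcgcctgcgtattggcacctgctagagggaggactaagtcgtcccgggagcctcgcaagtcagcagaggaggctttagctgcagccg
Pclo: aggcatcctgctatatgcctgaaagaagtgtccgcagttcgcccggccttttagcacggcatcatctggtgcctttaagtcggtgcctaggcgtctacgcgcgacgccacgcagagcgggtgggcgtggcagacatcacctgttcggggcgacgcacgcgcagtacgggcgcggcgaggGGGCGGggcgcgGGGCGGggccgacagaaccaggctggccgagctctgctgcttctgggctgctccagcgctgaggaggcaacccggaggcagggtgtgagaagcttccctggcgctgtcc
Syn1: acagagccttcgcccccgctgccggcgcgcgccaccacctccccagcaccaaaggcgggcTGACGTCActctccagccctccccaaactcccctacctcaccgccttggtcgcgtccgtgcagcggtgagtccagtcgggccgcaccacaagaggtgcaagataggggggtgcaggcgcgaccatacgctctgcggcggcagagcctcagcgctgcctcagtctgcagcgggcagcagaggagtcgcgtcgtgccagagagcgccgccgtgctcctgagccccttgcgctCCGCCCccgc
Vamp1: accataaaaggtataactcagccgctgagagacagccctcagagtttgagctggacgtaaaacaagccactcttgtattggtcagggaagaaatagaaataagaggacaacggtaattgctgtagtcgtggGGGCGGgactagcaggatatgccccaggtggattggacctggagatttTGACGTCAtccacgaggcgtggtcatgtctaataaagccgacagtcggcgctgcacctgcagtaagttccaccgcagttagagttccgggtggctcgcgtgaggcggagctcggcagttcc
The windows lie at chr1:85915185-85915484 on the plus strand (Napa), chr3:156632369-156632668 on the minus strand (Napb), chr4:21005062-21005361 on the minus strand (Pclo), chrX:3725495-3725794 on the plus strand (Syn1) and chr4:159698644-159698943 on the plus strand (Vamp1). The first base of the response element is at −59 from the annotated start in Napa, −190 in Syn1 and −71 in Vamp1. Fold changes of these 3 genes were −0.03, −0.04 and 0.13 (log2). A match of letters is a description of the window and shows no binding.

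The wider pathway was read from a further list of 110 symbols of SNARE, synaptotagmin, active zone, Rab3 cycle, vesicle and endocytosis genes, of which 109 had protein-coding rows and 106 rows were tested. In edgeR 0 passed in either direction (background 0.0%). The median log2 fold change was 0.01 and 54 of 106 (50.9%) were above 0, against 51.3% of all genes. At an unadjusted p under 0.05 there were 3 above 0 (background 2.38%) and 2 below 0 (background 3.2%), and the groups did not overlap in 2 genes, Cadps2 and Snap91, both with higher knockdown values (background 1.82%). These shares were near those of all genes.

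Among other endocytosis genes, with 11 of 27 above 0, Sh3gl2 (endophilin A1, which shapes endocytic necks) was at 57.9 ± 7.51 CPM (scrambled) against 88.6 ± 22.2 CPM (knockdown; SD, n = 4 per group), a log2 fold change of 0.61 (standard error 0.18, edgeR adjusted p = 0.833). Its groups overlapped. Epn1 (epsin 1, a clathrin adaptor) had −0.33 (standard error 0.12, edgeR adjusted p = 0.833). Among other SNARE and priming genes, with 14 of 25 above 0, Cadps2 (CAPS2, a priming factor of dense-core vesicles) was at 58.7 ± 7.73 CPM (scrambled) against 71.7 ± 4.71 CPM (knockdown; SD, n = 4 per group), a log2 fold change of 0.29 (standard error 0.10, edgeR adjusted p = 0.833), and Stxbp5 (tomosyn 1, which binds syntaxin) had 0.14 (standard error 0.08).

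The other sublists also had 0 genes called. In the Rab3 cycle list, with 7 of 12 above 0, Rab3b had −0.34 (standard error 0.14) and Rph3a (rabphilin, a Rab3 effector) 0.24 (standard error 0.13). Of other vesicle proteins 5 of 15 were above 0, with 0.48 (standard error 0.20) for the synaptophysin-like Sypl1 and −0.70 (standard error 0.36) for Sncg (γ-synuclein). Of other active zone genes 11 of 18 were above 0, with −0.23 (standard error 0.12) for the scaffold Git1 and −0.16 (standard error 0.08) for Lin7b, a partner of Cask. Of other synaptotagmins 6 of 9 were above 0, with −0.76 (standard error 0.47) for the low-abundance Syt8 and 0.12 (standard error 0.08) for Syt12.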

How the data were processed

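The deposited table holds read counts (whole numbers) per gene and sample. FPKM values of these genes, made by the authors, were deposited beside them. Tools listed in the submitters' processing notes, without roles or settings, are featureCounts 1.5.0-p3, StringTie 1.3.3b, HISAT2 2.0.5 and fastp, with build rn6. Ratios of counts to FPKM showed a scaling between samples by size factors. Samples were grouped and columns matched by title, and all pairs of libraries within a group differed by more than counting noise (chi-square over its degrees of freedom, 23.2 to 47.4). Replicates are biological, per the labels.

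Counts were fitted with edgeR 4.0.16 (R 4.3.3): filterByExpr (minimum count 10), TMM scaling and the robust quasi-likelihood F test without covariates, with 2-sided p-values adjusted by Benjamini-Hochberg over 16573 genes, at a threshold of 0.05. The procedure was tested on simulated data. Standard errors were derived from the log2 fold change and the F statistic, CPM used the TMM factors, and log2 CPM a prior count of 2. Alternatives were other scalings, filters, DESeq2 1.42.0, limma 3.58.1 (voom, and log2 FPKM with pseudocounts of 1 and 0.1), a replicate block, removal of each library's length trend (loess, span 0.5) and left-out libraries. Values per library are given for the 2 members of each role with the smallest p and the most and least abundant member. Of the wider list the 2 genes of each sublist with the smallest p are given. Members and lists were chosen with earlier results of these data known. The limit of 2.5 on the ratio of libraries, the 3 libraries low for these genes, the genes with wide ranges and Snap91 were picked after their values were seen.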

Additional observations from a re-analysis of the deposited data

Results flagged for a closer look

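In 6 of 92 sets of 4 libraries (6.52%), 1 library stood apart from the other 3 by more than 0.829 of the range of the set, and chance alone flags about 1 set in 20. Knockdown replicate 1 was at 1327 CPM of Syt1, against 1134 to 1156 CPM in the other knockdown libraries, and at 235 CPM of Synj1, against 201 to 206 CPM. Scrambled replicate 1 was at 103 CPM of Syt3, against 128 to 132 CPM in the other scrambled libraries. Scrambled replicate 4 was at 47.3 CPM of Syt7, against 75.8 to 79.7 CPM. Knockdown replicate 3 had a log2 ratio of Bsn to Pclo of 5.59, against 3.33 to 3.58 in the other knockdown libraries, and of Erc2 to Erc1 of −2.73, against −1.81 to −1.7. Both ratios of that library rest on the low values of Pclo and Erc2 given above.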

How the results depend on the processing

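Of 23 alternatives, none called any of the 35 genes or of the wider list. All genes together gave 0 calls in edgeR, 18 with DESeq2 and 0 to 1 with single libraries left out (1 each without knockdown replicate 2 or 3). Without 3 libraries, scrambled replicates 3 and 4 and knockdown replicate 3, there were 3 calls. The median of the 35 genes ran from −0.02 to 0.03 and the number above 0 from 16 to 23 with single libraries left out. In 16 of the 35 genes the direction held in every alternative, 10 above 0 (Syt1, Syt2, Snap25, Vamp1, Nsf, Rims1, Bsn, Pclo, Unc13b and Synj1) and 6 below 0 (Syn3, Sncb, Syt3, Syt5, Stx1a and Vamp2). The other 19 turned at least once, and the cause was not tested. The share of all genes that kept their direction is not given here, so the count of 16 has no background beside it. The alternatives reuse the same libraries and are not independent, and the adjusted p threshold of 0.10 leaves the fit unchanged.

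With RLE scaling and with DESeq2, Syn2 turned to −0.00483 and −0.00488 and Sv2a to −0.00211 and −0.00214. With the length trend removed, Syn2 was at −0.05, Sv2a −0.06, Syt4 −0.02, Syt11 −0.04 and Cplx1 −0.00062. Without the 3 libraries named, Syn1 was at 0.02, Synpr −0.05, Cplx2 −0.01, Napa 0.07, Napb −0.24, Rab3a 0.02, Erc1 0.01, Erc2 −0.05 and Dnm1 0.01. With single libraries left out, genes that turned ran from −0.09 to 0.11 for Syn2, from −0.13 to 0.05 for Syp, from −0.34 to 0.01 for Syngr1, from −0.17 to 0.34 for Synpr, from −0.05 to 0.06 for Sv2a, from −0.28 to 0.06 for Syt7, from −0.04 to 0.09 for Cplx1, from −0.03 to 0.68 for Cplx2, from −0.20 to 0.92 for Napb, from −0.08 to 0.03 for Rab3a, from −0.05 to 0.54 for Rims2, from −0.12 to 0.04 for Unc13a, from −0.10 to 0.01 for Erc1 and from −0.10 to 0.01 for Dnm1. Log2 ratios that turned ran from −0.18 to 0.03 for Syn1 to Syn2, from −0.17 to 0.03 for Sv2a to Sv2b and from −0.08 to 0.82 for Napb to Napa.

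Replicate numbers 1, 3 and 4 occur in both groups. Deviations of same-numbered libraries correlated at 0.369, 0.299 and 0.087 over genes, and 1 of the 3 was under 0.1, so the numbers were not taken to pair animals. Each of knockdown replicates 1, 3 and 4 correlated best with the scrambled library of its own number, whereas scrambled replicate 4 correlated best with knockdown replicate 3 (0.218). With the replicate block, over 6 libraries, 0 genes and 0 of the 35 were called, 4 of the 35 had an unadjusted edgeR p under 0.05 (10.1% of all genes), and Syn2 was at −0.14, Synpr −0.18 and Unc13a 0.03. Counting depth limits the least abundant genes most, such as Erc2 at 0.596 to 3.58 CPM.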
